A study of Homo sapiens with 6 samples.

Results

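Messenger RNA levels of 10 intermediate filament genes were examined in A2780 ovarian cancer cells with and without a hairpin against USP39. The genes were INA, NEFL, NEFM, NEFH, NES, VIM, KRT8, KRT18, KRT19 and KRT7, taken as the rows that carry these symbols in the deposited count table and summed per gene, and they are 10 of the 16571 symbols in that table. They were chosen with their counts in both groups known, so the differences between shUSP39 and pGIPZ-NC for these genes are given as values with no test, and nothing is supported with them.

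A2780 is an established line that the labels describe as serous ovarian cancer cells. All 6 libraries came from A2780 cells infected with lentivirus. The 3 pGIPZ-NC libraries carried the control vector and the 3 shUSP39 libraries carried a short hairpin RNA that targets USP39, which belongs to the spliceosome. The study's methods describe stable lines obtained by lentiviral infection and puromycin selection, and name more than 1 hairpin in the pGIPZ vector. Which hairpin each shUSP39 library carried, and whether the libraries of a group came from separate infections, is not stated in the sources used here. The targeted transcript was not analysed here, and the labels could not be checked against it.

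Intermediate filaments are rope-like polymers of coiled-coil proteins that give cells mechanical strength. Which proteins they are built from depends on the cell type: keratins pair as type I with type II in epithelia, vimentin forms homopolymers in mesenchymal cells, nestin copolymerises with vimentin in progenitor cells, and neurofilament proteins and alpha-internexin build the filaments of neurons. Keratin subunits that lack a partner are usually degraded, so the members of a pair are often read together.

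In GENCODE annotation on GRCh37, INA is at chr10:105036895-105050103 on the plus strand with 3 exons, VIM at chr10:17270240-17279592 on the plus strand with 10 exons, NES at chr1:156638555-156647199 on the minus strand with 4 exons, and NEFH at chr22:29876207-29887379 on the plus strand with 4 exons. KRT19 is at chr17:39679869-39684560 on the minus strand with 6 exons. The other 3 keratin genes are on chromosome 12, KRT7 at chr12:52626304-52645970 on the plus strand, KRT18 at chr12:53342655-53346690 on the plus strand and KRT8 at chr12:53290971-53343738 on the minus strand. Each gene had 1 transcript row in the deposited table except KRT18, which had 2.

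Promoter sequences were at hand for INA, NES, VIM and KRT8 in the RefSeq table of build GRCh38.p14. The 250 bases before the transcript start are shown for INA and NES, the neural members that were higher in all 3 shUSP39 libraries, at chr10:103276888-103277137 on the plus strand and at chr1:156677408-156677657 on the minus strand. Capitals mark the GC box GGGCGG or its reverse complement CCGCCC, and both sequences run 5′ to 3′ on the strand of the gene.
INA: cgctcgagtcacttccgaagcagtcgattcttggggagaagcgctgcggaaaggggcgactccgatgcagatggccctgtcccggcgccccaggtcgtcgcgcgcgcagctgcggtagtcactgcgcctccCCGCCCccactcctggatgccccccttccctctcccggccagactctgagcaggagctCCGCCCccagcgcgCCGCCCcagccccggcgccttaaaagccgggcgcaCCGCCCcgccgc
NES: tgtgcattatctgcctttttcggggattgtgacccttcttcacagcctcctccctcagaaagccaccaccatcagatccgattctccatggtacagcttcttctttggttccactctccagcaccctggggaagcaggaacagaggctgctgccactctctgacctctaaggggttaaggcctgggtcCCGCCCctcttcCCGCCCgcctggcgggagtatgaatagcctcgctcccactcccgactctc
The INA window held 4 GC boxes and 72.8% G and C, and the NES window held 2 and 58.0%, which equals the median G and C content of all 35116 promoters. The VIM window held 1 GC box and the KRT8 window 0. A GC box on either strand was present in 42.6% of all promoters. The TATA box letters TATAAA were in none of the 4 windows on either strand and in 10.7% of all promoters. The CAAT box letters CCAAT were likewise in none of the 4 and in 32.0% of all. These matches describe letters in the sequence and not bound sites.

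The libraries held between 28294819 and 32939264 counts each. A count was recorded for 12662 to 12809 genes in pGIPZ-NC, for 12819 in shUSP39 replicate 1, and for 15446 and 14890 in shUSP39 replicates 2 and 3, so the last pair stood apart in what was detected at low level. For several genes with low counts, the log2 fold change with replicate 1 as the only shUSP39 library is therefore given as well. It is given with no p, since only the pGIPZ-NC libraries then show the spread. Markers of serous ovarian epithelium had few counts: 8 of 10 stayed under 1 CPM (the count of a gene per 1000000 counts of its library) in every library or had no value here (WT1 and EMX2), CDH1 had at most 1 count, and their summed level was 0.212 to 1.34 in pGIPZ-NC and 1.76 to 7.64 CPM in shUSP39. The upper end in shUSP39 was mostly MUC16 in replicate 2, whose counts are given further below. Of 10 neuron markers, 8 were under 1 CPM in every library or had no value here, and the sum was 51.2 to 56.9 CPM and 45.7 to 55.8 CPM. Fibroblast markers summed to 2535 to 2652 in pGIPZ-NC and 1255 to 1329 CPM in shUSP39, most of it collagen transcripts. Leukocyte and endothelial markers summed to 9.35 to 12.2 CPM and 12.2 to 12.9 CPM. LMNA, a lamin gene that most cell types express, had only 14 to 32 counts per library and LMNB1 had no value here, so a low value in this table does not show that a gene was not expressed. The part of these shifts in the filament genes was not tested, and in bulk RNA fewer cells of a type and less RNA per cell cannot be told apart.

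Among the filament genes, INA was 3.94-fold higher in shUSP39, NES 1.52-fold and KRT18 1.49-fold higher, and KRT19 was 12.2-fold lower. KRT8 had 26 to 37 counts per library in pGIPZ-NC and 0 to 3 in shUSP39. VIM and NEFH, the most abundant members, differed by under 0.1 on the log2 scale. NEFL, NEFM and KRT7 had few or no counts in either group. Of the 10 members, 8 passed the filter on low counts (edgeR's filterByExpr, which asks for enough counts in as many libraries as a group has), and KRT8 passed it only through its counts in pGIPZ-NC. Of these 8, 1 was beyond 2-fold higher and 2 beyond 2-fold lower, where 8.62% of all 10695 genes tested were beyond 2-fold in either direction. The CPM of the groups did not overlap in 3 higher and 3 lower members, where 44.5% of all genes tested had groups that did not overlap (24.1% higher and 20.3% lower). Nothing is read from these counts, since the members were chosen on this contrast.

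**Figure D1:**
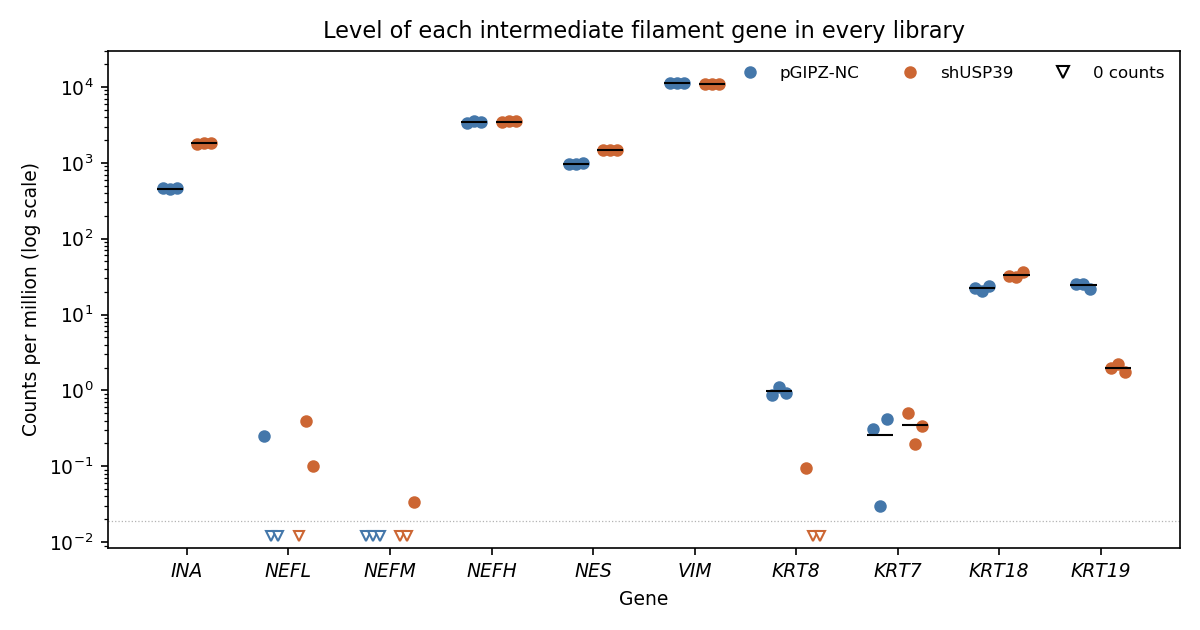
CPM (log scale) of the 10 intermediate filament genes in each of the 3 pGIPZ-NC (blue) and 3 shUSP39 (orange) libraries, 1 point a library. Black bars are group means, drawn where every library had a count, and open triangles below the dotted line are libraries with 0 counts. INA sat at 446 to 467 in pGIPZ-NC and 1772 to 1833 CPM in shUSP39, and KRT19 at 21.8 to 25.5 CPM and 1.73 to 2.25 CPM.

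INA encodes alpha-internexin, a neuronal filament protein that appears early in neuronal development. Its counts were 14872, 14684 and 13222 in pGIPZ-NC replicates 1 to 3 and 56339, 55429 and 53386 in shUSP39 replicates 1 to 3. In CPM these were 461, 446 and 467 against 1772, 1833 and 1815. All 3 shUSP39 libraries were above all 3 pGIPZ-NC libraries, and the libraries of a group lay close together (458 ± 11.1 against 1807 ± 31.2 CPM, SD, n = 3). The fitted log2 fold change was 1.95 (SE 0.03), between 1.93 and 1.96 with any 1 library left out, and 1.93 for shUSP39 replicate 1 alone. Exons of INA share 452 bases with exons of NT5C2 on the other strand, and use of strand in the counting is not stated. NT5C2 rose from 6.89 ± 0.294 to 11.7 ± 1.16 CPM (SD, n = 3, log2 fold change 0.73, SE 0.13, edgeR adjusted p = 9.51e-05). The part of the shared bases in the counts of INA was not tested.

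NEFH, NEFM and NEFL encode the heavy, medium and light neurofilament subunits, which in neurons assemble together with alpha-internexin. NEFH gave 3383, 3529 and 3454 in pGIPZ-NC and 3417, 3511 and 3522 CPM in shUSP39. The groups overlapped, with means of 3455 ± 73.3 and 3483 ± 57.8 CPM (SD, n = 3). The log2 fold change of NEFH was -0.01 (SE 0.03), and its sign depended on the scaling: it was 0.03 with upper-quartile scaling and 0.01 with library size only. NEFL had 8, 0 and 0 counts in pGIPZ-NC and 0, 12 and 3 counts in shUSP39. NEFM had 0 counts in all libraries but shUSP39 replicate 3, which had 1. Neither gene passed the filter, and a count of 0 allows up to 3 counts per library, or a mean of 0.0967 CPM in pGIPZ-NC. The heavy subunit was thus present at a high count in both groups while the light and medium subunits were at or near 0.

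NES encodes nestin, a large filament protein of neural progenitors and of some tumours. It gave 953, 976 and 982 in pGIPZ-NC and 1463, 1486 and 1483 CPM in shUSP39. The groups did not overlap, and the means were 970 ± 15.1 and 1477 ± 12.8 CPM (SD, n = 3). The log2 fold change was 0.58 (SE 0.03), or 0.57 to 0.58 with 1 library left out.

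VIM encodes vimentin, the main filament protein of mesenchymal cells and a usual partner of nestin. It gave 11239, 11143 and 11177 in pGIPZ-NC and 10929, 10852 and 10846 CPM in shUSP39. All shUSP39 libraries were slightly below all pGIPZ-NC libraries, with means of 11186 ± 48.7 and 10875 ± 46.3 CPM (SD, n = 3). The log2 fold change was -0.07 (SE 0.02), it was -0.02 with upper-quartile scaling and -0.04 with library size only, so NES and VIM, which can copolymerise, did not show the same difference.

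The keratin members are those of simple epithelia, with KRT18 and KRT19 of type I and KRT8 and KRT7 of type II. KRT18 gave 22.1, 20.5 and 23.9 in pGIPZ-NC and 32.0, 30.8 and 36.6 CPM in shUSP39. All shUSP39 libraries were above all pGIPZ-NC libraries (22.2 ± 1.69 against 33.1 ± 3.03 CPM, SD, n = 3), and the log2 fold change was 0.56 (SE 0.09), or 0.48 to 0.61 with 1 library left out. KRT18 was the member with 2 transcript rows. The main row, NM_000224.2, held 89.1% ± 2.01 of the counts of the gene in pGIPZ-NC libraries and 89.4% ± 1.84 in shUSP39 libraries (mean ± SD, n = 3), so the split between the rows was alike in both groups.

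KRT19, a type I keratin that is often expressed in ductal and glandular epithelium, had 821, 836 and 616 counts in pGIPZ-NC and 62, 68 and 51 counts in shUSP39. All 3 shUSP39 libraries were far below the lowest pGIPZ-NC library, with means of 24.2 ± 2.11 and 1.98 ± 0.258 CPM (SD, n = 3). The log2 fold change was -3.64 (SE 0.14). It stayed between -3.74 and -3.55 with 1 library left out and was -3.66 for shUSP39 replicate 1 alone, so it was as large without the libraries that stood apart in detection.

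KRT8, the usual type II partner of KRT18, had 28, 37 and 26 counts in pGIPZ-NC and 3, 0 and 0 counts in shUSP39. The groups did not overlap, but all 6 values were low, and all 3 counts in shUSP39 were in replicate 1. From the summed 91 and 3 counts, KRT8 was 29.7-fold lower in shUSP39 after scaling to the library totals, with an exact 95% interval of 9.84 to 147 that covers counting error only. The value rests on that library: the fitted log2 fold change was -4.76 with all libraries, -3.33 with replicate 1 as the only shUSP39 library and -7.91 without it, where both remaining shUSP39 libraries were at 0 and the fitted value is no bound. KRT7, a type II keratin of simple and glandular epithelium, had 10, 1 and 12 counts in pGIPZ-NC and 16, 6 and 10 counts in shUSP39. The KRT7 groups overlapped, and its log2 fold change of 0.45 (SE 0.73) ran from -0.10 to 0.99 with 1 library left out and was 0.97 with shUSP39 replicate 1 alone.

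KRT8 and KRT18 also had, of the 10 genes, the largest shares of exon sequence that occurs elsewhere. Of the 50-base windows along the exons of KRT8, 39.2% occur also in another annotated gene, 36 genes in all, and the same holds for 36.7% of the KRT18 windows and 45 genes. The share was 2.64% for NEFH, 1.79% for KRT19 and 1.08% for KRT7, and 0 for INA, NES and VIM. Annotated pseudogenes named after them number 51 for KRT8, 68 for KRT18 and 5 for KRT19. KRT8 has 3 messenger RNA transcripts in the RefSeq table and 1 row here, and 440 bases of KRT18 exons overlap KRT8 or a miRNA gene. How reads that fit several places were counted is not stated, and its part in these low counts was not tested. Genes with 1 RefSeq transcript had a median of 2.68 CPM over 6548 genes and those with more had 1.63 CPM over 9080 genes.

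**Figure D2:**
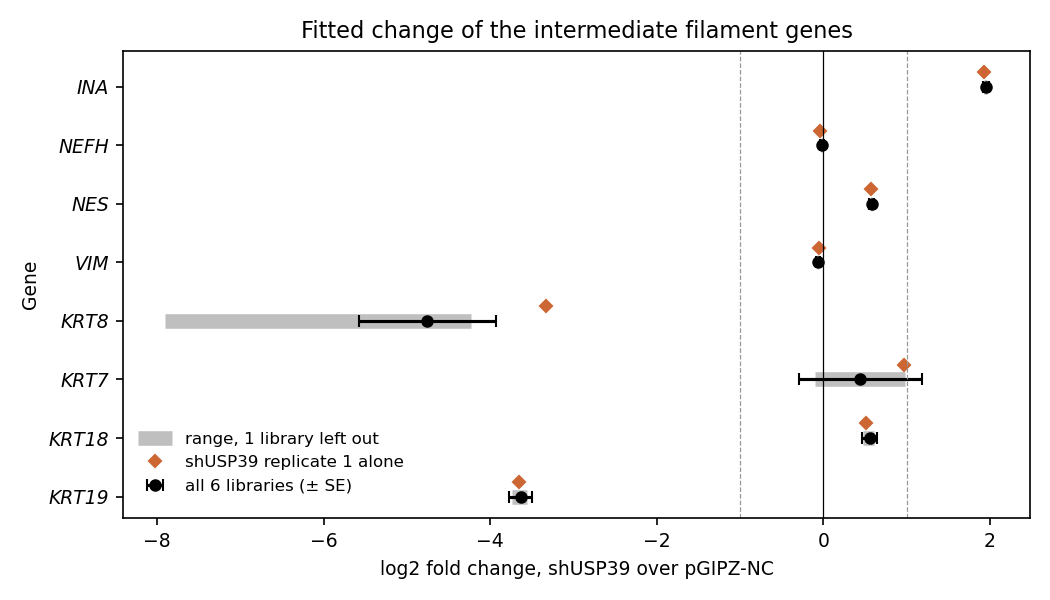
Fitted log2 fold change of shUSP39 over pGIPZ-NC for the 8 members that passed the filter on low counts (black points with SE), the range with 1 library left out (grey bars) and the value with shUSP39 replicate 1 alone (orange diamonds). Dashed lines mark 2-fold. INA (1.95), NES (0.58), KRT18 (0.56) and KRT19 (-3.64) had narrow ranges, while KRT7 crossed 0 and KRT8, with 3 counts in shUSP39, had a fitted value that depends on how the fit treats counts of 0.

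The plot of fitted changes shows how far each member depended on single libraries. INA, NES, VIM, KRT18, KRT19 and KRT8 kept their sign in all alternatives that gave a value, whereas KRT7 kept it in 14 of 15 and NEFH in 13 of 16.

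For levels between genes, CPM were divided by the length of the MANE Select transcript in kilobases (CPM per kb). In pGIPZ-NC the order of the mean levels was VIM with 5193 ± 22.6, NEFH with 910.5 ± 19.3, NES with 174 ± 2.70, INA with 141 ± 3.42, KRT19 with 17.4 ± 1.52 and KRT18 with 15.7 ± 1.19 CPM per kb (SD, n = 3). The ranges of KRT19 (15.7 to 18.3) and KRT18 (14.5 to 16.9) overlapped, so their order is not beyond their spread. KRT8 at 0.544, KRT7 at 0.157 and NEFL at 0.0231 CPM per kb followed, and NEFM was at 0. In shUSP39, INA with 556 ± 9.59 CPM per kb stood above NES with 265 ± 2.29, and KRT18 with 23.4 ± 2.14 stood above KRT19 with 1.42 ± 0.186. VIM with 5049 ± 21.5 and NEFH with 918 ± 15.2 CPM per kb remained the highest.

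The summed level of the members rested mostly on VIM, which made up 80.5% ± 0.301 of it in pGIPZ-NC libraries and 74.1% ± 0.378 of it in shUSP39 libraries (SD, n = 3). The share of INA was 2.18% ± 0.0521 and 8.16% ± 0.134, that of NES 2.70% ± 0.0432 and 3.89% ± 0.0303, and that of NEFH 14.1% ± 0.308 and 13.5% ± 0.212. Together the 10 genes held 1.61% ± 0.00288 of all counts in pGIPZ-NC and 1.77% ± 0.00550 in shUSP39.

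Ratios within a library do not depend on its scaling. INA per kb relative to NES per kb was 0.829, 0.783 and 0.815 in pGIPZ-NC and 2.08, 2.11 and 2.10 in shUSP39. INA was the lower of the pair in every pGIPZ-NC library and the higher in every shUSP39 library. INA relative to NEFH was 0.159, 0.147 and 0.158 in pGIPZ-NC and 0.605, 0.610 and 0.602 in shUSP39, so INA stayed below NEFH throughout. KRT18 relative to KRT19 was 0.852, 0.795 and 1.08 in pGIPZ-NC and 16.1, 13.5 and 20.7 in shUSP39.

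**Figure D3:**
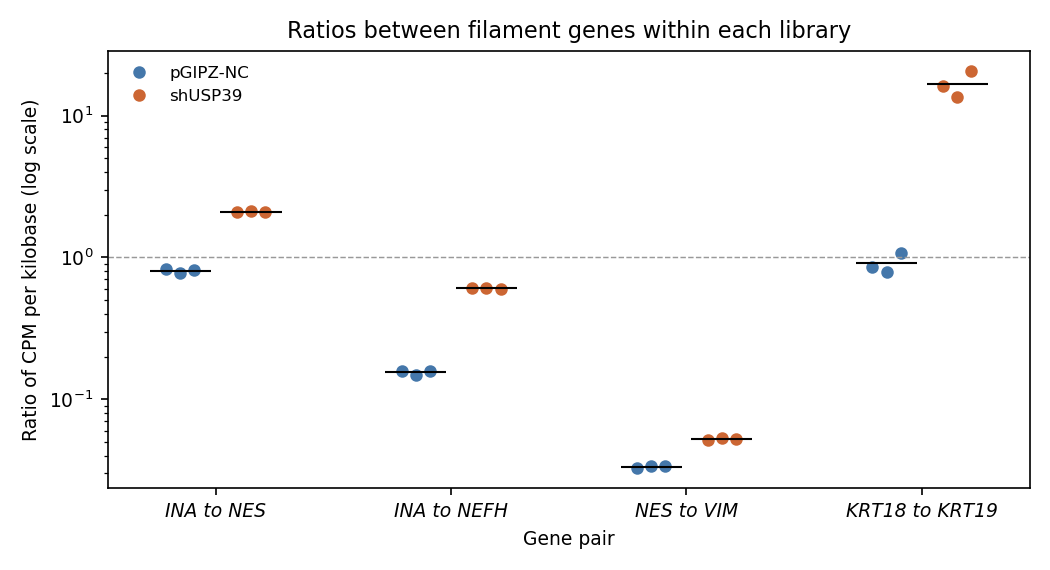
Ratios of CPM per kb between filament genes within each library (log scale), for 3 pGIPZ-NC (blue) and 3 shUSP39 (orange) libraries, with the group mean as a bar and a dashed line at 1. The ratio of INA to NES was below 1 in all pGIPZ-NC libraries and above 1 in all shUSP39 libraries, and the mean ratio of NES to VIM was 0.0336 and 0.0525.

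The genes whose pattern was most like that of INA over the 6 libraries, measured as the root mean square difference of log2 CPM after centring on pGIPZ-NC, were CHDH (0.0618), a choline dehydrogenase, MMP1 (0.0646), a collagenase, and TCF7L1 (0.0665), a transcription factor of the Wnt pathway. Their log2 fold changes were 1.96, 1.91 and 1.98 beside 1.95 for INA. This likeness follows from how the genes were picked and nothing is read from it.

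The rest of the filament network was read from lists of genes chosen by family or role, with earlier results of these data known. EdgeR's quasi-likelihood test was run across all genes with Benjamini-Hochberg adjustment. The adjusted p-values of list genes are therefore no independent support for a list. KRT34, KIF5C and CLDN4 met the filter on low counts only with their shUSP39 libraries, and DSP, DCN and LUM only with their pGIPZ-NC libraries. Each thus entered the test through the group where it was high. Their adjusted p-values are given as a description, nothing is supported with them, and the counts of genes that rose or fell include these genes. A gene passed at an adjusted p under 0.05, which 33.6% of all 10695 genes tested did (16.1% higher and 17.5% lower in shUSP39). Beyond 2-fold as well were 6.81% (4.53% higher and 2.28% lower), and the genes tested had a median log2 fold change of 0.01. Of 60 other intermediate filament genes, 58 had values and 9 were tested. Of these 9, 3 rose and 0 fell, and their median log2 fold change was 0.29.

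KRT17, a type I keratin of basal and stressed epithelium, rose from 51, 20 and 13 counts in pGIPZ-NC to 391, 419 and 342 counts in shUSP39. This was 0.883 ± 0.610 against 12.6 ± 1.14 CPM (SD, n = 3) with no overlap (log2 fold change 3.78, SE 0.27, adjusted p = 4.25e-10). The log2 fold change was 4.51 without pGIPZ-NC replicate 1, the library with 51 counts, 3.49 at the lowest with another library left out, and 3.75 with shUSP39 replicate 1 alone. KRT17 thus stood high in every shUSP39 library, the reverse of the type I keratin KRT19. KRT34, a hair keratin of type I, had 4, 0 and 0 counts in pGIPZ-NC and 13, 50 and 14 in shUSP39 (adjusted p = 0.000639). The summed counts gave a 19.7-fold ratio, with an exact 95% interval of 7.38 to 74.0 for counting error. The size of the KRT34 value depended on single libraries: the log2 fold change was 4.16 (SE 0.91) with all libraries, 3.24 without shUSP39 replicate 2, 3.13 with shUSP39 replicate 1 alone and 7.68 without pGIPZ-NC replicate 1, where the remaining control libraries were at 0 and the fitted value is no bound. SYNM, which encodes synemin, a large partner of vimentin and desmin filaments, rose as well (log2 fold change 0.55, SE 0.07, adjusted p = 1.87e-07). Of the 50-base windows, 17.4% of KRT17 and 12.2% of KRT34 occur also in another gene, and none of SYNM.

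Most of the remaining family had few counts. Of the 60 genes, a count was recorded for 21, 16 and 15 in the pGIPZ-NC libraries, for 18 in shUSP39 replicate 1, and for 58 and 50 in shUSP39 replicates 2 and 3. Every one of the 58 with values thus had a count in replicate 2, and these libraries also had the most genes detected of all. Without the filter on low counts 9 of the 58 family genes passed, all as higher. Over all 16571 genes in that fit, 681 were called as higher and 259 as lower, so calls as higher were the more frequent there too. Nothing about the family is read from the 9. Those added to KRT17, KRT34 and SYNM, named after their values were seen, were the hair keratin genes KRT31, KRT33B and KRT83 and the keratin genes of stratified epithelium KRT5, KRT6A and KRT6B, with adjusted p between 0.0131 and 0.0488 in that fit. KRT33B had 1, 0 and 1 counts in pGIPZ-NC and 4, 10 and 23 in shUSP39, and the other five had 0 counts in all pGIPZ-NC libraries and in shUSP39 replicate 1 and 4 to 16 counts in shUSP39 replicates 2 and 3. These genes were thus counted, KRT33B apart, only in the libraries that stood apart in detection. With the filter kept and 1 library left out, 3 or 4 family genes passed. LMNB2, which encodes lamin B2 of the nuclear lamina, was at 43477 to 49490 counts in every library and had a log2 fold change of 0.00 (adjusted p = 0.984), and KRT10, a keratin of differentiated epidermis, was at 1614 to 2088 counts (-0.15, adjusted p = 0.0867).

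Of 10 tested genes for cytolinkers, which tie filaments to other structures, and for desmosomes, the junctions that anchor keratins, 3 rose and 3 fell (median log2 fold change 0.10). DSP, which encodes desmoplakin, the desmosomal anchor of keratin filaments, fell from 25, 59 and 24 counts to 0, 2 and 2 (adjusted p = 1.89e-05), with the 0 in replicate 1. From the summed counts it was 26.4-fold lower, with an exact 95% interval of 10.02 to 98.7 for counting error. The fitted log2 fold change of DSP was -4.60 with all libraries. It was -8.17 with shUSP39 replicate 1 alone, where the count was 0 and the fitted value is no bound. PERP, a desmosomal membrane protein, fell from 20.2 ± 2.04 to 2.46 ± 0.0708 CPM (SD, n = 3), 8.21-fold (log2 fold change -3.06, SE 0.14, adjusted p = 1.23e-15). DSP and PERP were low in all 3 shUSP39 libraries. JUP (log2 fold change 0.13, edgeR adjusted p = 0.605) and PKP3 (-0.29, edgeR adjusted p = 0.499), also tested in this list, did not pass and their groups overlapped. In the other direction, SYNE3, a nuclear envelope protein that connects to filaments through plectin, rose from 0.844 to 5.29 CPM (log2 fold change 2.62, SE 0.24, adjusted p = 2.32e-09), or 2.78 with shUSP39 replicate 1 alone. EPPK1, which encodes the keratin-binding epiplakin, rose from 8.11 to 22.0 CPM (1.42, SE 0.13, adjusted p = 1.07e-09). PPL, another cytolinker of the plakin family, rose by 0.96 (SE 0.35, adjusted p = 0.0331) although its groups overlapped. PPL no longer passed with DESeq2 (log2 fold change 0.96) or with limma-voom (0.90). Nor did it without pGIPZ-NC replicate 2 (0.89), pGIPZ-NC replicate 3 (0.76) or shUSP39 replicate 2 (0.54). The log2 fold change of PPL was 0.80 with shUSP39 replicate 1 alone. MACF1, which links actin and microtubules, changed by -0.13 (adjusted p = 0.00223).

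Of 14 tested kinases, phosphatases and turnover factors that act on filament proteins, 1 rose and 4 fell (median -0.06). The split depended on the scaling, with 3 that rose and 3 that fell under upper-quartile scaling, and 2 and 3 with library size only. PAK1, a kinase that phosphorylates vimentin, fell (log2 fold change -1.29, SE 0.46, adjusted p = 0.0311), a call that was lost with DESeq2 (adjusted p = 0.0656) and in 5 of 6 cases with 1 library left out (up to 0.131, all but the case without pGIPZ-NC replicate 2). The log2 fold change of PAK1 in these cases was -1.16 to -1.39, and it was -1.21 with shUSP39 replicate 1 alone. ROCK2 and ROCK1, kinases of the actin cytoskeleton that also phosphorylate vimentin, fell by 0.73 and 0.11, and CDK5, a neurofilament kinase, by 0.39. ROCK1 no longer passed under upper-quartile scaling (-0.06) or with library size only (-0.08). Nor did it without pGIPZ-NC replicate 1 (-0.08), pGIPZ-NC replicate 2 (-0.12), shUSP39 replicate 2 (-0.10) or shUSP39 replicate 3 (-0.08). CDK5 no longer passed without pGIPZ-NC replicate 3 (-0.28). STUB1, a ubiquitin ligase, rose by 0.65 (SE 0.23, adjusted p = 0.0266). It no longer passed with DESeq2 (0.65) or without pGIPZ-NC replicate 1 (0.54), pGIPZ-NC replicate 3 (0.66) or shUSP39 replicate 2 (0.57). The most abundant genes of this list, PPP2CA (-0.02, adjusted p = 0.682) and PLK1 (-0.01, adjusted p = 0.809), did not pass.

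Of 23 genes of neuronal microtubules and growth cones, 19 had values and 15 were tested. MAPT, STMN2, STMN4 and GAP43 had no value here. Of the 15 tested, 7 rose and 2 fell (median log2 fold change 0.42). The summed level of the list was 1433 to 1508 CPM in pGIPZ-NC and lower, 1357 to 1382 CPM, in shUSP39. KIF5C, a neuronal kinesin heavy chain, rose from 11, 25 and 4 counts to 119, 60 and 72, or 0.414 to 2.73 CPM (2.66, SE 0.42, adjusted p = 1.41e-05). Its log2 fold change was 3.42 without pGIPZ-NC replicate 2, 2.26 at the lowest with another library left out, and 3.12 with shUSP39 replicate 1 alone. MAP1B, a microtubule-associated protein of growing axons, rose from 5.58 to 19.3 CPM (1.76, SE 0.12, adjusted p = 1.05e-11). STMN3, a stathmin, rose by 1.15 (SE 0.36, adjusted p = 0.0128), a call that was lost without pGIPZ-NC replicate 2 (log2 fold change 0.92, adjusted p = 0.0790) and without shUSP39 replicate 3 (0.81, adjusted p = 0.147). It was 0.79 with shUSP39 replicate 1 alone. TUBB3, the neuronal beta-tubulin, rose by 0.81, DPYSL2 by 0.91, DPYSL4 by 0.46 and KIF5A by 0.33, the last a call that was lost without pGIPZ-NC replicate 2 (0.28) or shUSP39 replicate 2 (0.26). MAP1A, the microtubule-associated protein of mature neurons, fell by 0.42, and DCLK1 fell by 0.76. MAP1B and TUBB3 thus moved in the direction of INA, and MAP1A in the other.

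**Figure D4:**
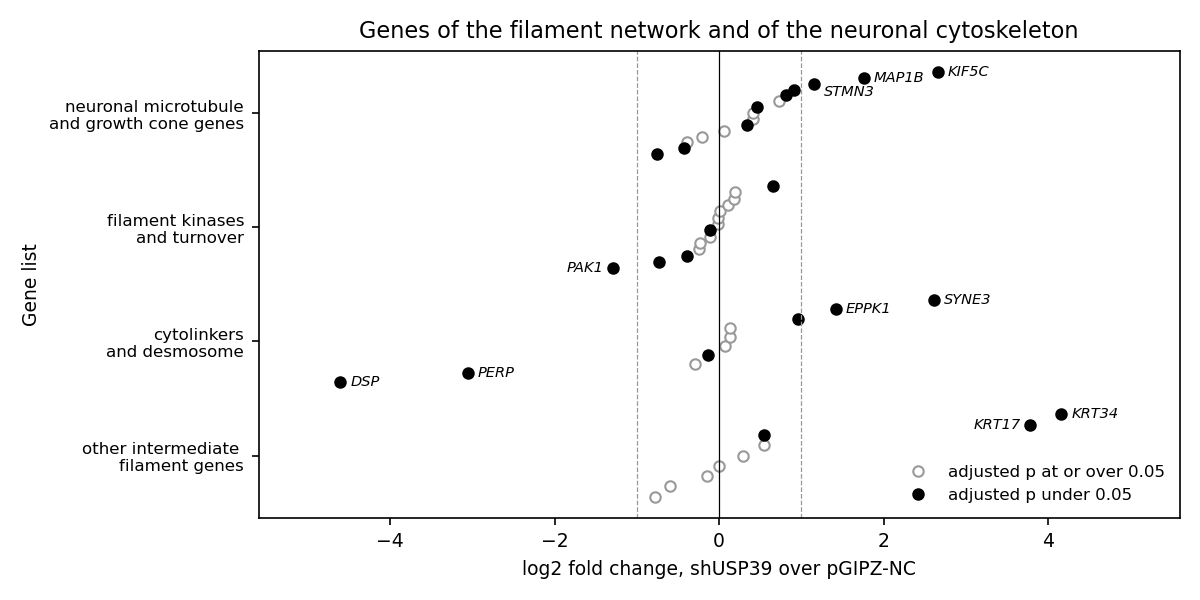
Log2 fold change of shUSP39 over pGIPZ-NC for every tested gene of 4 gene lists, 1 point a gene, filled where the adjusted p was under 0.05. Dashed lines mark 2-fold and genes that passed beyond it are named. Of the other intermediate filament genes 3 of 9 rose, of the cytolinkers 3 rose and 3 fell, and DSP is drawn at a fitted value that rests on 4 counts in shUSP39.

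Of the marker genes, the single serous epithelium marker tested was CLDN4, a tight junction claudin, which rose by 1.51 (SE 0.55, adjusted p = 0.0350), a call lost with DESeq2 (adjusted p = 0.0708) and without pGIPZ-NC replicate 1, pGIPZ-NC replicate 3, shUSP39 replicate 2 or shUSP39 replicate 3 (up to 0.169). Its log2 fold change ran from 1.02 to 2.74 with 1 library left out, the latter without pGIPZ-NC replicate 2, and was 1.19 with shUSP39 replicate 1 alone. MUC16 had 5, 1 and 1 counts in pGIPZ-NC and 6, 150 and 71 in shUSP39. Of 4 tested neuron markers, SLC17A7 rose by 0.44 (SE 0.11, adjusted p = 0.00187), or 0.28 with shUSP39 replicate 1 alone, and SYP, the synaptic vesicle protein synaptophysin, fell by 0.64 (SE 0.08, adjusted p = 6.06e-07). Of 7 tested fibroblast markers 1 rose and 4 fell. The marker that rose was THY1 (log2 fold change 0.68, edgeR adjusted p = 0.000475), or 0.49 with shUSP39 replicate 1 alone. COL1A1 (-0.20, edgeR adjusted p = 0.380) and PDGFRB (0.29, edgeR adjusted p = 0.577) did not pass. DCN, the proteoglycan decorin, fell from 31, 22 and 49 counts to 0, 1 and 6 (log2 fold change -3.81, SE 0.74, adjusted p = 0.000191). Without shUSP39 replicate 3 the value was -5.81, where the remaining shUSP39 counts were 0 and 1. With shUSP39 replicate 1 alone, at 0 counts, the fitted value was -8.13, which is no bound. LUM, the proteoglycan lumican, fell from 176, 170 and 97 counts to 16, 3 and 16 (-3.63, SE 0.36, adjusted p = 7.34e-09), or -3.24 with shUSP39 replicate 1 alone. COL1A2, a chain of type I collagen, fell from 1149 ± 37.4 to 462 ± 11.8 CPM (SD, n = 3, adjusted p = 2.79e-21). The 1 leukocyte and endothelial marker tested, CD68, did not pass (0.05, adjusted p = 0.825).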

How the data were processed

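RNA-seq was analysed in 6 libraries of A2780 cells, 3 per group, with groups and replicate numbers taken from the sample labels. The authors deposited 1 table of raw counts per RefSeq messenger RNA transcript, with 1 column per library, and also group signals, folds, p-values and q-values of their own, which were not used. The submitters' processing notes name HISAT2, Cufflinks and hg19 without a role or version. The counter, its use of strand and its treatment of reads that fit several places are not given in the sources used here. Symbols turned into dates were replaced through the transcript identifier in 46 cases and 1 was kept, and 21368 rows were summed to 16571 symbols. Coordinates and lengths came from GENCODE on GRCh37, and transcript numbers and promoters from RefSeq on GRCh38.p14.

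The members and the gene lists were chosen with earlier results of these data known. Counts were fitted with edgeR 4.0.16 (limma 3.58.1, R 4.3.3): filterByExpr left 10695 genes, libraries were scaled by TMM, and a robust quasi-likelihood test was adjusted over all genes by Benjamini-Hochberg. The SE is the log2 fold change divided by the root of the F statistic. The biological coefficient of variation was 7.59%. A gene was called at an adjusted p under 0.05 and beyond 2-fold, which held for 728 genes or 6.81%. All members were named, and of each list the genes called, up to 4 in each direction, or else the 2 with the highest CPM. Other genes are named for their role after their values were seen. On simulated counts for 10695 genes, 100% of 200 genes changed 4-fold were recovered with 2 false calls. The changed genes were drawn only from those with a mean over 1 CPM, so recovery at lower levels was not tested. Smaller changes were not simulated. The simulated spread followed the mean level of a gene only, and the simulation held no difference in detection between the shUSP39 libraries. Alternatives were other scalings, filters and tests (DESeq2 1.42.0, limma-voom), a replicate block, each library left out, shUSP39 replicate 1 alone and the highest transcript row in place of the sum. Where groups hold few counts, the ratio of summed counts has an exact conditional binomial interval. The labels call the replicates biological, and p-values measure the spread between these libraries. Shifts in scaling, and intervals and limits from counts, cover neither mapping nor annotation error.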

Additional observations from a re-analysis of the deposited data

How the results depend on the processing

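Among the 8 members that passed the main filter, 3 were beyond 2-fold under all alternatives, each single library left out included, except that 2 were where every library needed 10 or more counts, since KRT8 then dropped out. Genes called numbered 728, 471 under that stricter filter, and 677 to 836 with 1 library left out, with 597 for shUSP39 replicate 1 alone. Other intermediate filament genes that passed numbered 9 of 58 tested without a filter on low counts in place of 3 of 9, and 3 to 4 with 1 library left out. Filament kinases and turnover factors numbered 3 with DESeq2 and 3 with shUSP39 replicate 1 alone in place of 5, and 2 to 4 with 1 library left out (2 without pGIPZ-NC replicate 3 or shUSP39 replicate 2, 3 without pGIPZ-NC replicate 1). With 1 library left out the range was 5 to 6 for cytolinkers and desmosome genes and 8 to 10 for neuronal microtubule and growth cone genes, and with shUSP39 replicate 1 alone these numbered 4 and 7. The causes were not tested. With 1 shUSP39 library, that library is assumed to vary like the pGIPZ-NC libraries. KRT8, KRT7, NEFL and NEFM had under 40 counts in every library, which limits the precision of their values.

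With the replicate number as a block, 745 genes were called in place of 728, the members beyond 2-fold stayed at 3, and 4 other filament genes, 6 cytolinkers, 7 filament kinases and 9 neuronal genes passed. Deviations of same-numbered libraries correlated at 0.0688, 0.0048 and 0.0216. The same-numbered shUSP39 library was the best match for pGIPZ-NC replicates 1 and 3, while pGIPZ-NC replicate 2 correlated best with shUSP39 replicate 3 (0.0302). All of these values were small, so the numbers are not taken to pair the samples.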
